A study of Mus musculus with 10 samples.

Results

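The 8 genes described here encode the 4 tissue inhibitors of metalloproteinases (*Timp1*, *Timp2*, *Timp3* and *Timp4*), the secreted ADAMTS proteases *Adamts1*, *Adamts5* and *Adamts9*, and the membrane-bound collagenase *Mmp14*. They were chosen by name among 22828 mouse genes, and all 8 were found. Metalloproteinases cut collagens, proteoglycans and other matrix proteins around vessels, and TIMP proteins bind and block their active sites. *Timp3* encodes an inhibitor that stays bound to the matrix and blocks ADAMTS enzymes strongly, and the *Timp2* product also takes part when the *Mmp14* enzyme activates the gelatinase proenzyme made by *Mmp2*. In bone, this balance bears on the removal of cartilage and bone matrix beside growing vessels.

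Endothelial cells (ECs) were sorted by a GFP and tdTomato double signal from femur and tibia of Cdh5-mTnG reporter mice on a C57BL/6 background, in which the *Cdh5* promoter marks ECs. There were 5 groups of 2 libraries each: juvenile (3 weeks, male and female mice), adult (12 weeks), aged (75 weeks), PTH (12 weeks, given parathyroid hormone) and alendronate (12 weeks, given a bisphosphonate that blocks bone resorption), the last 4 from female mice. Adult libraries carry no treatment label, and since juvenile mice were of both sexes, age and sex cannot be told apart in that comparison. Per the study's methods mice were pooled within a group and the experiment was done once, so the libraries of a group are not separate mice and p-values measure only the spread between libraries.

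The libraries held 10653583 to 28419323 UMIs (unique molecular identifiers, each marking a captured transcript), and 46283 of 47466 barcodes had 500 to 6000 genes and under 25% mitochondrial UMIs. The aged libraries stood apart. They shared 1 to 3 barcodes with each library of another group, against up to 78 between the other libraries. They alone listed genes with names starting with U (267 and 265 genes, 1.52 and 1.53% of their UMIs), which the tables of the other groups lacked. The series names more than one reagent version without assigning it to libraries, so processing and an age of 75 weeks cannot be told apart. In sums over a cell type, fewer expressing cells and less RNA per cell cannot be told apart either.

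Cell types were named from markers after clustering without the 8 genes. Levels are given in CPM, UMI counts of a type and library per 1000000, with totals adjusted between sums by TMM factors. Sums over marker lists, and single markers of non-endothelial and lymphatic cells, are scaled to unadjusted totals. Sinusoidal-like cells (type L, 19147 cells) had a median of 1872 CPM of *Stab2* over the 10 libraries, arterial-like cells (5640) had 1456 CPM of *Gja4* and metaphyseal-like cells (type H, 7441) had 1317 CPM of *Aplnr*. Type R-like cells (2976), named after the post-arterial capillaries of the study, had 536 CPM of *Aqp7*, against at most 13.7 CPM in any sum of another type. The metaphyseal-like name is the least sure. Of its cells, 3032 came from a shallow cluster (median 1432 UMIs) led by *Gm10800* and *Gm10801*. A gate on marker UMIs placed 7592 cells as metaphyseal, and 53.1% of them lay in this type, against 73.2 to 93.1% for the others. *Aplnr* reached 1169 CPM in type R-like cells, within the metaphyseal-like range of 782 to 1905 CPM. The pan-endothelial genes *Cdh5* and *Pecam1* were present at 1032 and 508 CPM or more in every sum. Type R-like cells numbered 33 to 47 in both juvenile libraries and in PTH replicate 1, and 231 to 669 in the others.

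The sequences upstream of the annotated start are shown for 3 genes on which the results turn, *Timp4* for the difference between types (chr6:115252206-115252455, minus strand), *Adamts1* for the change under alendronate (chr16:85803114-85803363, minus strand) and *Timp3* for the difference with age (chr10:86300162-86300371, plus strand). They are RefSeq sequences of GRCm38.p6, read 5′ to 3′ toward the start, and capitals mark matches to CACCC on either strand (the box of KLF factors) and to TATAAA.
Timp4: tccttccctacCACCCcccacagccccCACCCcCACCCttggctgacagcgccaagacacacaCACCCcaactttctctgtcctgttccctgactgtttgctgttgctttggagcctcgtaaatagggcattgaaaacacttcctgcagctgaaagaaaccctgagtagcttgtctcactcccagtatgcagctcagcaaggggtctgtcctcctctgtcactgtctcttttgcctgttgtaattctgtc
Adamts1: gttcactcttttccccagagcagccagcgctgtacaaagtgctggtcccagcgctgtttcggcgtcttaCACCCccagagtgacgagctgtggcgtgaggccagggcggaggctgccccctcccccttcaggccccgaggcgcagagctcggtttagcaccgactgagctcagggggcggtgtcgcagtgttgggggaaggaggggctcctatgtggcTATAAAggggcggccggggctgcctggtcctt
Timp3: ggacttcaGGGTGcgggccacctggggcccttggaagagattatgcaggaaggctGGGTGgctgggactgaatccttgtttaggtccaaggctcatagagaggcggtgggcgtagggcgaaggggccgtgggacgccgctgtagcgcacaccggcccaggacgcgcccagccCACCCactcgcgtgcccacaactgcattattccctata
The *Timp4* stretch held 4 matches to CACCC, *Timp3* held 3 and *Adamts1* held 1, while 52.0% of 32851 promoters held at least 1. *Adamts1* was the one gene of 6 searched (with *Timp1*, *Timp3*, *Timp4*, *Adamts9* and *Mmp14*) that held TATAAA, found in 12.4% of all promoters. None of the 6 held TGANTCA (AP-1, 6.75% of all promoters) or TGACGTCA (CRE, 1.55%) on either strand, and each held GGAA (ETS, 93.4%). A match is a description of these letters and not a site. RefSeq promoters were matched for 7 of the 8 genes, and that of *Timp2* lay inside an annotated exon and was not searched.

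In GENCODE vM21 (GRCm38) the genes lie at chrX:20870166-20874735 (*Timp1*), chr11:118301069-118355740 (*Timp2*), chr10:86300372-86349506 (*Timp3*), chr6:115241892-115252205 (*Timp4*), chr16:85793827-85803113 (*Adamts1*), chr16:85856173-85901828 (*Adamts5*), chr6:92772699-92943492 (*Adamts9*) and chr14:54431612-54445364 (*Mmp14*). *Timp1*, *Timp3* and *Timp4* lie within *Syn1*, *Syn3* and *Syn2*, synapsin genes on the opposite strand, and *Timp3* and *Timp4* share exonic bases with theirs. *Adamts9* shares exonic bases with the antisense genes *A730049H05Rik* and *Gm15737*. The strand setting of the counting is not given in the sources used here, so reads of such partners cannot be told apart. The highest level in any sum was 43.2 CPM for *Syn2*, 8.55 CPM for *Syn3*, 19.0 CPM for *A730049H05Rik* and 7.88 CPM for *Gm15737*. A further antisense gene, *9530026P05Rik*, overlaps *Adamts9* without sharing exonic bases and reached 68.8 CPM.

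The endothelial types differed in the inhibitors and proteases they held, and *Timp4* in type R-like and *Adamts5* in sinusoidal-like cells stood out most. Of 48 tests between types (8 genes, 6 pairs), 23 passed an adjusted p of 0.05 with a change above 2-fold (edgeR quasi-likelihood test on sums per type and library, with the library as a block). Arterial-like differed from sinusoidal-like cells in 3 of 8 genes, while 18.5% of all genes tested were called. The counts were 1 of 8 for metaphyseal-like against sinusoidal-like cells (background 11.3%) and 4 of 8 for metaphyseal-like against arterial-like cells (11.1%). Type R-like cells differed in 5 of 8 genes from sinusoidal-like (22.2%), in 5 of 8 from arterial-like (10.3%) and in 5 of 8 from metaphyseal-like cells (16.2%). *Adamts1* and *Adamts9* were called in none of the 6 pairs at more than 2-fold.

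**Figure D1:**
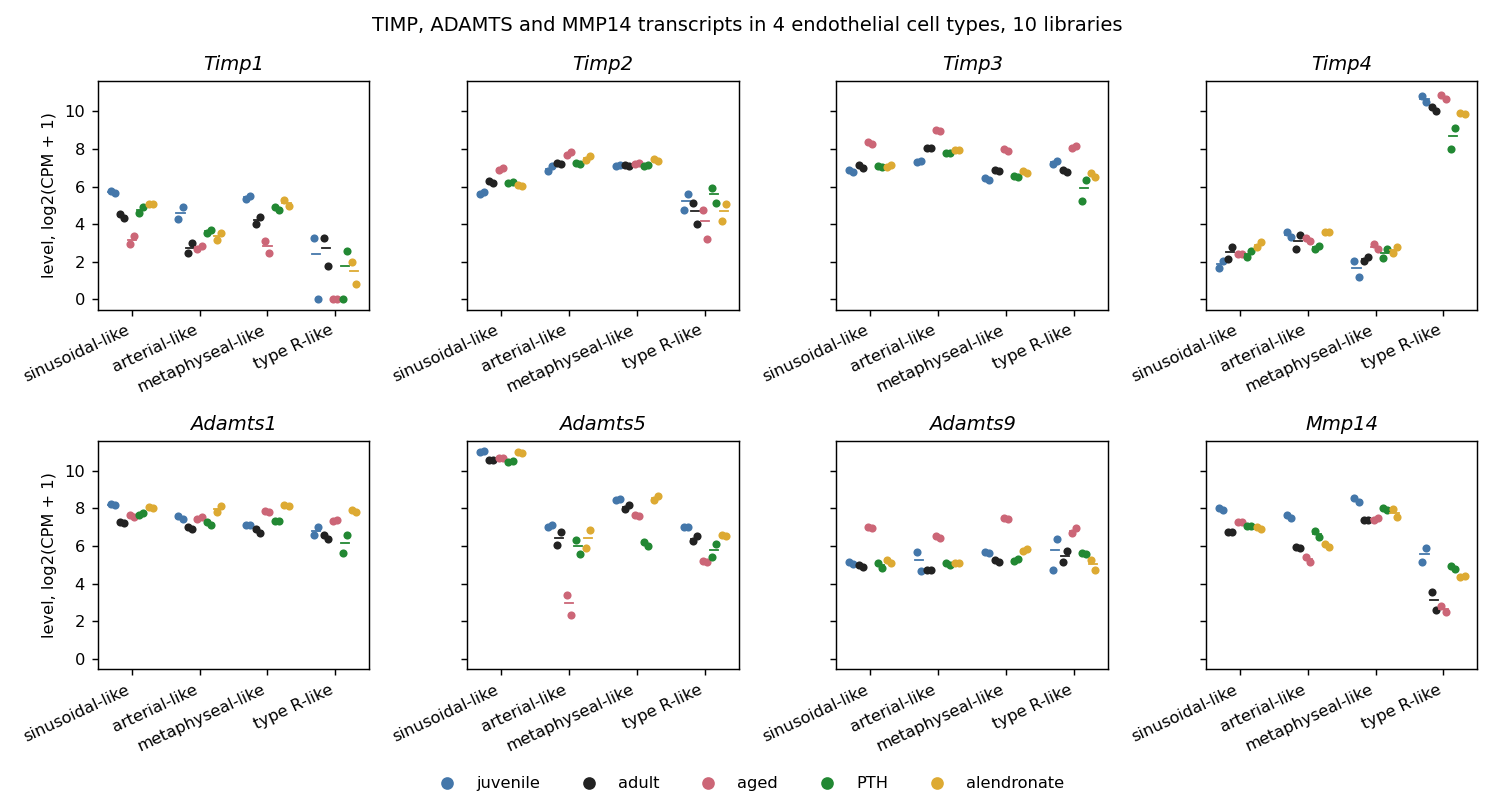
Level of each gene as log2(CPM + 1) in 4 endothelial types; each point is a library, coloured by group, and each short line is the mean of the 2 libraries of a group. *Timp4* was highest in type R-like cells, *Adamts5* in sinusoidal-like cells, *Timp3* in arterial-like cells and *Mmp14* in metaphyseal-like cells in 10 of 10 libraries.

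*Timp1* encodes a secreted inhibitor that many cells induce during growth and repair. It averaged 27.8 ± 15.1 CPM (SD, n = 10 libraries) in sinusoidal-like, 25.4 ± 13.5 CPM in metaphyseal-like, 11.1 ± 7.44 CPM in arterial-like and 2.82 ± 3.44 CPM in type R-like cells, where 4 of 10 libraries had no UMI. Sinusoidal-like and metaphyseal-like cells overlapped (-0.15 ± 0.12 on the log2 scale ± SE, adjusted p = 0.28, edgeR), with a 95% interval of -0.37 to 0.079. Arterial-like cells were below sinusoidal-like cells in 10 of 10 libraries (-1.37 ± 0.15, adjusted p = 1.1e-10, edgeR).

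*Timp2* was high in arterial-like and metaphyseal-like cells and lowest in type R-like cells in 10 of 10 libraries. The level was 163 ± 34.4 CPM in arterial-like, 146 ± 13.5 CPM in metaphyseal-like, 76.8 ± 25.4 CPM in sinusoidal-like and 30.1 ± 15.5 CPM in type R-like cells (SD, n = 10). Arterial-like and metaphyseal-like cells differed by -0.14 ± 0.11 (adjusted p = 0.33, edgeR), less than their spread. Type R-like cells were below arterial-like (-2.79 ± 0.18), metaphyseal-like (-2.65 ± 0.18) and sinusoidal-like cells (-1.67 ± 0.19).

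*Timp3* was highest in arterial-like cells. Its median was 246 CPM in arterial-like, 135 CPM in sinusoidal-like, 113 CPM in type R-like and 108 CPM in metaphyseal-like cells. Arterial-like cells exceeded metaphyseal-like cells (metaphyseal minus arterial -1.15 ± 0.074, adjusted p = 2.0e-16, edgeR) and type R-like cells (type R minus arterial -1.12 ± 0.089, adjusted p = 1.5e-13, edgeR). Both remained past the test but under 2-fold in 1 alternative each, the first at clustering resolution 1.0 (-0.98) and the second without the library block (-0.98). Type R-like and metaphyseal-like cells were not separated (0.025 ± 0.090, 95% interval -0.15 to 0.20).

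*Timp4*, the inhibitor best known from heart muscle, set type R-like cells apart, and it led their cluster although it took no part in clustering or naming. Its level was 1161 ± 525 CPM in type R-like, 8.44 ± 2.17 CPM in arterial-like, 4.51 ± 1.48 CPM in sinusoidal-like and 4.30 ± 1.59 CPM in metaphyseal-like cells (SD, n = 10). The lowest type R-like library (254 CPM) lay above the highest sum of the other named endothelial types (10.97 CPM). Clusters without a type name, on unadjusted totals, reached 139 CPM (led by *Gkn3*) and 68.5 CPM (led by *Ccl21a*). The differences were 7.04 ± 0.20 from arterial-like (adjusted p = 4.0e-27, edgeR), 7.92 ± 0.19 from sinusoidal-like and 7.93 ± 0.21 from metaphyseal-like cells. The shares of sinusoidal-like and metaphyseal-like cells with *Timp4* are read as background below, so the differences from those types are from background levels.

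*Adamts1*, a versican-cutting protease, was more even. Its median was 209.6 CPM in sinusoidal-like, 173 CPM in arterial-like, 158 CPM in metaphyseal-like and 112 CPM in type R-like cells. Type R-like cells were below sinusoidal-like cells in 10 of 10 libraries (-0.67 ± 0.12, adjusted p = 1.2e-05, edgeR), less than 2-fold.

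*Adamts5*, an aggrecanase that also cuts versican, was highest in sinusoidal-like cells and was among the 10 leading genes of 2 of their clusters without having been used to build them. The study had already shown *Adamts5* among its markers of type L ECs in the age groups of this series. The pattern is therefore not independent of that report. Its level was 1748 ± 276 CPM there (1416 to 2128 CPM), 253 ± 119 CPM in metaphyseal-like, 79.0 ± 34.7 CPM in type R-like and 74.9 ± 46.7 CPM in arterial-like cells. No other type's range reached that of sinusoidal-like cells. The log2 differences from sinusoidal-like cells were -2.95 ± 0.24 in metaphyseal-like (adjusted p = 1.8e-13, edgeR), -4.65 ± 0.31 in type R-like and -4.78 ± 0.27 in arterial-like cells. Metaphyseal-like cells exceeded arterial-like cells by 1.83 ± 0.26 (adjusted p = 1.5e-07, edgeR), but by 0.25 (adjusted p = 0.23) when the libraries were clustered without integration.

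*Adamts9*, another versican-cutting protease, had medians of 33.1 CPM in sinusoidal-like, 33.4 CPM in arterial-like, 48.0 CPM in type R-like and 49.4 CPM in metaphyseal-like cells. Its largest difference was 0.62 ± 0.10, metaphyseal-like over arterial-like cells (adjusted p = 1.9e-06, edgeR).

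*Mmp14*, whose product cuts fibrillar collagen at the cell surface, was highest in metaphyseal-like and lowest in type R-like cells in 10 of 10 libraries. The level was 232 ± 72.9 CPM in metaphyseal-like, 155 ± 55.1 CPM in sinusoidal-like, 90.3 ± 56.8 CPM in arterial-like and 21.6 ± 16.9 CPM in type R-like cells. Metaphyseal-like cells exceeded arterial-like cells by 1.498 ± 0.12 (adjusted p = 3.0e-13, edgeR) and sinusoidal-like cells by 0.58 ± 0.11, the latter less than 2-fold. Type R-like cells were below metaphyseal-like cells (log2 difference -3.67 ± 0.20, adjusted p = 2.0e-18, edgeR).

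Shares of cells with a UMI were compared after thinning each cell to 1000 UMIs, with haematopoietic-like cells as a reference for free RNA. These cells were deeper (median 8911.5 UMIs, against 2025 in type R-like cells), so thinning lowers a fixed amount of free RNA further in them. *Timp2* ranged from 0 to 13.9% over their libraries, and they may hold transcripts of their own. The reference can thus lie below or above the free RNA of an endothelial type. *Timp4* was found in 47.7% ± 16.4 of type R-like cells (SD, n = 10) and in 0.722% of arterial-like, 0.412% of sinusoidal-like and 0.345% of metaphyseal-like cells, beside 0.586% (exact 95% interval 0.215 to 1.27%) of haematopoietic-like cells, an interval that holds all 3 of these. *Adamts5* was found in 69.0% ± 7.90 of sinusoidal-like and 16.5% ± 7.31 of metaphyseal-like cells. Its shares of 5.28% in arterial-like and 4.89% in type R-like cells lay within the interval of haematopoietic-like cells, 5.18% (exact 95% interval 3.90 to 6.72%). *Timp1* in type R-like cells, at 0.393%, lay within the interval too, beside 0.195% (exact 95% interval 0.0237 to 0.704%). *Timp2* in type R-like cells, at 2.27%, lay below the interval, beside 3.61% (exact 95% interval 2.56 to 4.95%). *Mmp14* in type R-like cells had 2.27% as a mean over libraries and 1.44% over all such cells together, beside 1.07% (exact 95% interval 0.537 to 1.91%), and the second lay within the interval. Shares not above that interval are read as background at this depth. With 2000 UMIs per cell, *Timp4* in arterial-like cells (1.85%) lay above the haematopoietic-like share and its interval, 0.887% (0.384 to 1.74%), as did *Adamts5* in type R-like cells, 8.99% beside 6.87% (5.31 to 8.73%), though the latter was 8.69% over all type R-like cells together. *Mmp14* in type R-like cells lay above it both as a mean over libraries (4.18%) and over all such cells together (2.98%), beside 1.44% (0.770 to 2.45%). For these shares a reading as background thus holds at the lower depth alone. A share above the interval can still hold free RNA. Shares of endothelial types are means over libraries, and those of haematopoietic-like cells are over all such cells together.

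**Figure D2:**
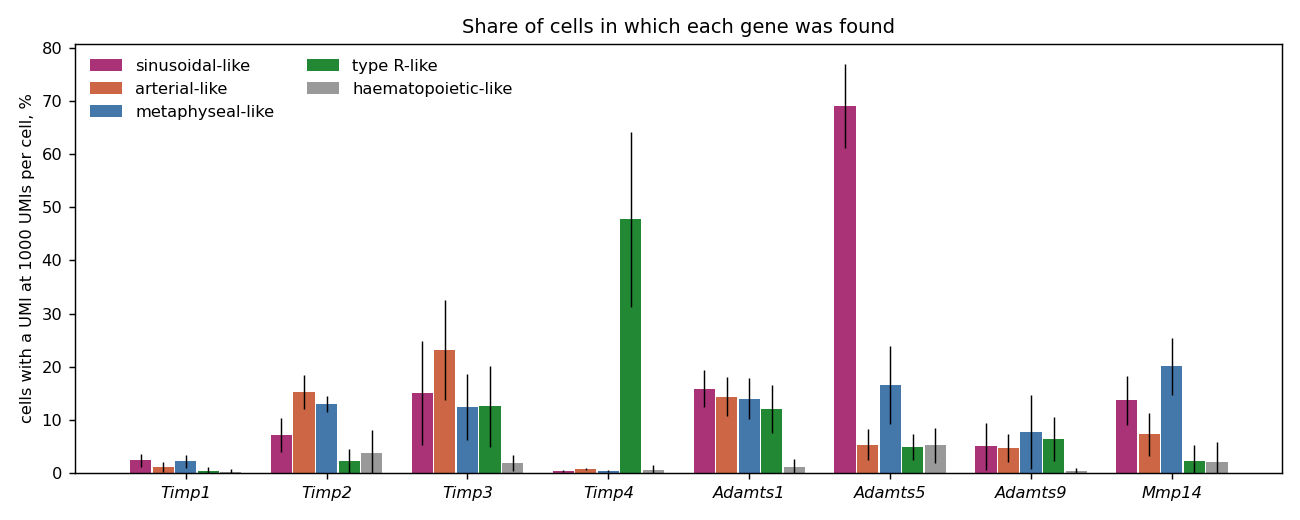
Share of cells with at least 1 UMI of each gene after thinning to 1000 UMIs per cell, in %, by cell type; bars are means over libraries (10 for endothelial types, 9 for haematopoietic-like cells) and error bars the SD, drawn no lower than 0. *Adamts5* in sinusoidal-like cells (69.0%) and *Timp4* in type R-like cells (47.7%) were the highest shares.

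Without thinning, *Adamts5* was found in 91.1% of sinusoidal-like cells (median depth 3745 UMIs) and *Timp4* in 58.8% of type R-like cells (2025 UMIs). Haematopoietic-like cells were deeper, with a median of 8911.5 UMIs, and had 19.2% and 2.79%. Thinning left out 554 sinusoidal-like, 187 arterial-like, 631 metaphyseal-like, 339 type R-like and 16 haematopoietic-like cells. Intervals cover counting error only.

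Summed over the 8 genes, inhibitor transcripts made up 11.4% ± 3.69 of the UMIs in sinusoidal-like, 29.6% ± 4.87 in metaphyseal-like, 54.0% ± 11.6 in arterial-like and 80.0% ± 7.17 in type R-like cells (SD, n = 10). The highest sinusoidal-like library had 17.9% and the lowest type R-like library, PTH replicate 1, had 67.4%. These shares carry the levels of *Adamts5* and *Timp4*, the most counted members in those types.

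Clusters without a type name held other combinations. A cluster led by *Gkn3*, *Igf2* and *Cytl1* (1440 cells), with 9 of 9 arterial markers raised, had median levels of 319 CPM of *Timp3*, 229.9 CPM of *Timp2*, 218 CPM of *Adamts1* and 38.4 CPM of *Timp4*. A cluster led by *Ccl21a* and *Vwf* (1883 cells) had 344 CPM of *Timp2* and 36.7 CPM of *Timp4* in the median library. Its best-scoring class was lymphatic (score 1.53, 4 of 6 markers raised), and type R came second (0.763). Its 10 leading genes include *Ccl21a*, a lymphatic marker, and *Fmo2* and *C1qtnf9*, both markers used to name type R-like cells. The type R-like cluster had medians of 29.4 CPM of *Timp2* and 1075 CPM of *Timp4*, so the *Ccl21a*-led cluster had less *Timp4* and more *Timp2* than it. A cluster led by *Ramp3* and *Ces2e* (4440 cells) had 256 CPM of *Adamts5*, 129 CPM of *Mmp14* and 3.53 CPM of *Timp4*. These levels are scaled to all UMIs of a cluster and carry no test.

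With age, *Timp1* and *Mmp14* were high at 3 weeks, and *Timp3* and *Adamts9* were high at 75 weeks. At 3 against 12 weeks, 7 of 8 genes were called in sinusoidal-like cells (background 37.9%), 4 of 8 in arterial-like (14.2%), 6 of 8 in metaphyseal-like (20.6%) and 1 of 7 in type R-like cells (3.17%), at an adjusted p of 0.05 (edgeR). At 75 against 12 weeks, the counts were 6 of 8 (66.2%), 6 of 8 (57.6%), 5 of 8 (62.4%) and 5 of 7 (46.7%), a share near the background that is no result about these genes. *Timp1* had too few counts to be tested within type R-like cells. The 7 genes at 3 weeks include *Timp4* in sinusoidal-like cells (2.22 and 3.16 CPM against 3.44 and 5.90 CPM; -0.79 ± 0.28), where its share is read as background. That call was lost in 5 of 22 alternatives, among them without juvenile replicate 1 (-0.55, adjusted p = 0.24) and without adult replicate 2 (-0.35, adjusted p = 0.49).

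*Timp1* differed between the 3 ages in sinusoidal-like cells without overlap. The libraries had 52.6 and 49.7 CPM in juvenile, 22.6 and 19.4 CPM in adult and 6.81 and 9.33 CPM in aged mice. It was higher at 3 weeks (1.28 ± 0.093, adjusted p = 7.6e-14, edgeR) and lower at 75 weeks (-1.51 ± 0.18, adjusted p = 1.9e-09, edgeR) than at 12 weeks. Metaphyseal-like cells had 39.1 and 44.5 CPM in juvenile, 15.1 and 20.02 CPM in adult and 7.60 and 4.56 CPM in aged libraries. The changes there were 1.25 ± 0.18 and -1.58 ± 0.30, the second -0.34 without integration (adjusted p = 0.76). Juvenile arterial-like cells had 18.3 and 28.9 CPM against 4.52 and 6.92 CPM (2.06 ± 0.38), a call lost without integration (1.42, adjusted p = 0.054) and with a marker gate (1.56, adjusted p = 0.059), the gate taking the place of clusters. The sum of 5 megakaryocyte markers, most of it *Pf4*, moved with *Timp1*. It was 201 and 217 CPM in juvenile, 78.6 and 89.5 CPM in adult and 43.0 and 31.9 CPM in aged sinusoidal-like cells. In metaphyseal-like cells it was 119.9 and 116, 76.2 and 74.9 and 29.9 and 29.9 CPM. *Pf4*, platelet factor 4, was the most counted of them (175 and 193, 64.0 and 65.7 and 35.5 and 26.5 CPM in sinusoidal-like cells), followed by the integrin gene *Itga2b* (19.7 and 20.1, 9.03 and 12.6 and 7.21 and 5.12 CPM). *Ppbp* had 5.48 and 3.22, 4.08 and 9.14 and 0 and 0 CPM there, so juvenile and adult libraries overlapped. In metaphyseal-like cells *Ppbp* was lower in juvenile (4.03 and 1.89 CPM) than in adult libraries (5.59 and 7.70 CPM). The platelet receptor genes *Gp9* and *Gp1bb* had at most 8.92 CPM in any sum. Their part in the changes of *Timp1* was not tested.

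*Timp2* moved the other way in sinusoidal-like cells, with 47.1 and 50.7 CPM in juvenile, 77.4 and 72.8 CPM in adult and 115 and 126 CPM in aged libraries. It was lower at 3 weeks (-0.62 ± 0.071, adjusted p = 5.0e-09, edgeR) and rose at 75 weeks there (0.56 ± 0.071) and in arterial-like cells (0.50 ± 0.090), the latter call lost without integration (0.080, adjusted p = 0.42). In metaphyseal-like cells neither change passed (-0.029 ± 0.086 and 0.064 ± 0.089).

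*Timp3* rose at 75 weeks in all 4 types. Aged libraries had 333 and 311 CPM against 142 and 127 CPM in adult sinusoidal-like cells and 512 and 502 CPM against 267 and 264 CPM in arterial-like cells. In metaphyseal-like cells they had 251 and 237 CPM against 115 and 111 CPM, and in type R-like cells 260.4 and 281 CPM against 116 and 109 CPM. In each type both aged values lay above every other library. The changes were 1.13 ± 0.057 in sinusoidal-like, 0.91 ± 0.069 in arterial-like, 1.07 ± 0.087 in metaphyseal-like and 1.30 ± 0.16 in type R-like cells (largest adjusted p = 1.3e-10, edgeR), and the arterial-like one was 0.20 without integration. At 3 weeks *Timp3* was lower in sinusoidal-like (-0.26 ± 0.058), arterial-like (-0.70 ± 0.094) and metaphyseal-like cells (-0.44 ± 0.097), the arterial-like call being lost without integration (-0.15, adjusted p = 0.37) and with a marker gate (-0.30, adjusted p = 0.13) and the metaphyseal-like one without cells holding a *Stab2* UMI (-0.40, adjusted p = 0.08). Juvenile type R-like cells went the other way, at 145 to 164 CPM against 109 to 116 CPM, and were not called.

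*Timp4* in type R-like cells was higher at 3 weeks (1770.4 and 1457 CPM) and at 75 weeks (1875 and 1612 CPM) than at 12 weeks (1188 and 1027 CPM). The changes were 0.68 ± 0.14 (adjusted p = 5.0e-04, edgeR) and 0.69 ± 0.11 (adjusted p = 1.2e-07, edgeR). The juvenile call was lost with a marker gate (0.74, adjusted p = 0.075) and without juvenile replicate 1 (0.47, adjusted p = 0.30). The markers that named these cells summed to 8164 and 6853 CPM in juvenile, 4563 and 4419 CPM in aged and 5108 and 4949 CPM in adult libraries, so they were high with *Timp4* at 3 weeks and not at 75 weeks.

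*Adamts9* rose at 75 weeks in all 4 types as well. The aged libraries had 127 and 126 CPM against 31.5 and 28.9 CPM in adult sinusoidal-like cells and 178 and 175 CPM against 37.3 and 34.1 CPM in metaphyseal-like cells. Arterial-like cells had 93.3 and 86.6 CPM against 25.1 and 25.6 CPM, and type R-like cells 102 and 123 CPM against 34.3 and 52.2 CPM. No library of another group reached the aged values. The changes were 1.94 ± 0.085, 2.26 ± 0.11, 1.80 ± 0.16 and 1.44 ± 0.25 in the same order (largest adjusted p = 1.3e-06, edgeR). How far processing of the aged libraries takes part in these values was not tested.

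*Adamts1* was higher in juvenile than in adult sinusoidal-like cells (296 and 293 CPM against 155 and 149 CPM; 0.95 ± 0.047, adjusted p = 7.8e-19, edgeR). At 75 weeks it rose in arterial-like cells (173 and 183 CPM against 128 and 121 CPM; 0.50 ± 0.099), a call kept under every alternative tried. The rise in sinusoidal-like cells (0.21 ± 0.055) was lost without the *Fosb*-led cluster (0.11, adjusted p = 0.14), without a filter on low counts (0.12, adjusted p = 0.062) and without aged replicate 1 (0.13, adjusted p = 0.11). It also rose in metaphyseal-like cells (231 and 223 CPM against 119 and 104 CPM; 0.99 ± 0.088), but the value was -0.064 (adjusted p = 0.87) without integration. Type R-like cells had 158 and 167 CPM against 94.4 and 82.0 CPM (0.92 ± 0.18).

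*Adamts5* was not called between aged and adult sinusoidal-like cells (1629 and 1667 CPM against 1549 and 1509.5 CPM; -0.017 ± 0.034, adjusted p = 0.68, edgeR) and was higher in juvenile ones (2063 and 2128 CPM; 0.45 ± 0.033). The aged CPM lay above the adult ones although the log2 change was slightly negative. CPM share a scaling over all types, while the test within a type has its own. Aged arterial-like cells had 9.58 and 4.04 CPM against 65.3 and 105 CPM in adult ones (-3.64 ± 0.32, adjusted p = 3.1e-12, edgeR), but without integration the change was 0.48. The share of arterial-like cells with *Adamts5* is read as background, so this is a fold of background levels. *Stab2*, the sinusoidal marker, moved with it, at 12.8 and 13.2 CPM in aged and 108 and 157 CPM in adult arterial-like cells, and its part in the result was not tested. Type R-like cells had 36.6 and 34.0 CPM against 75.1 and 92.0 CPM (-1.19 ± 0.25), a call lost with a marker gate (-0.73, adjusted p = 0.13), beside 40.9 and 25.8 CPM of *Stab2* in aged and 118 and 109 CPM in adult libraries.

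*Mmp14* was highest in juvenile cells. Sinusoidal-like cells had 264 and 245 CPM in juvenile, 108 and 106 CPM in adult and 156 and 152 CPM in aged libraries. Metaphyseal-like cells had 371 and 329, 167 and 164 and 169 and 180.4 CPM, and arterial-like cells 201 and 178, 61.2 and 58.0 and 41.5 and 35.2 CPM at these ages. Both juvenile libraries lay above all adult and aged ones in these 3 types. The juvenile changes were 1.25 ± 0.051 in sinusoidal-like, 1.08 ± 0.090 in metaphyseal-like and 1.67 ± 0.14 in arterial-like cells (adjusted p = 2.7e-21, 2.2e-12 and 3.4e-12, edgeR). At 75 weeks *Mmp14* rose in sinusoidal-like (0.40 ± 0.061) and fell in arterial-like cells (-0.66 ± 0.15), the latter 0.97 without integration. Metaphyseal markers in arterial-like cells moved with it, summing to 704 and 824 CPM in juvenile, 373 and 411 CPM in adult and 182 and 186 CPM in aged libraries, and their part was not tested. In sinusoidal-like cells they had 284 and 276 CPM in juvenile and 279.8 and 286 CPM in adult libraries.

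**Figure D3:**
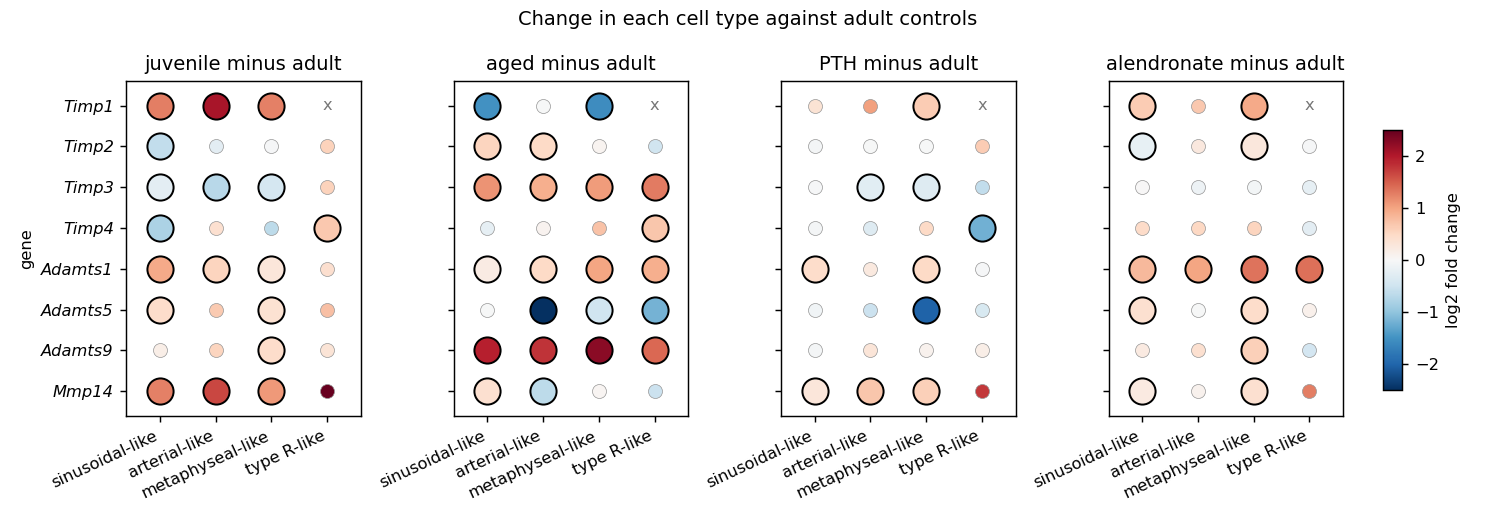
Log2 fold change of each gene against adult libraries in 4 cell types, for juvenile, aged, PTH and alendronate libraries; large outlined circles passed an adjusted p of 0.05 (edgeR), small circles did not, and x marks a gene not tested. *Timp3* and *Adamts9* were called in all 4 types at 75 weeks, and *Adamts1* in all 4 types under alendronate. Of all genes tested in a type, 46.7 to 66.2% were called at 75 weeks and 2.61 to 18.6% under alendronate.

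Parathyroid hormone builds bone when given intermittently, and the largest called changes under it were those of *Adamts5* in metaphyseal-like and *Timp4* in type R-like cells. Under PTH, 2 of 8 genes were called in sinusoidal-like (background 9.34%), 2 of 8 in arterial-like (7.02%), 5 of 8 in metaphyseal-like (10.1%) and 1 of 7 in type R-like cells (3.14%).

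*Adamts5* in metaphyseal-like cells had 73.1 and 63.7 CPM under PTH against 254 and 286 CPM in adult libraries, below every library of the other groups. It fell by 2.02 on the log2 scale (SE 0.094, adjusted p = 1.1e-19, edgeR). In sinusoidal-like cells the change was -0.090 ± 0.034 (adjusted p = 0.099), and the changes in the 2 types differed by -1.91 ± 0.13 (adjusted p = 3.7e-22, edgeR; 2.51% of all genes were called). Sinusoidal markers moved with it: metaphyseal-like cells had 149.9 and 159.9 CPM of *Stab2* under PTH and 343 and 376 CPM in adult libraries, and the 9 sinusoidal markers summed to 1115 and 1206 CPM under PTH and 1699 and 1785 CPM in adult libraries. When cells of the other types with a *Stab2* UMI were left out, a choice made after seeing the data, the change was -1.01 (adjusted p = 7.1e-05), and it was -1.18 with a marker gate in place of clusters.

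**Figure D4:**
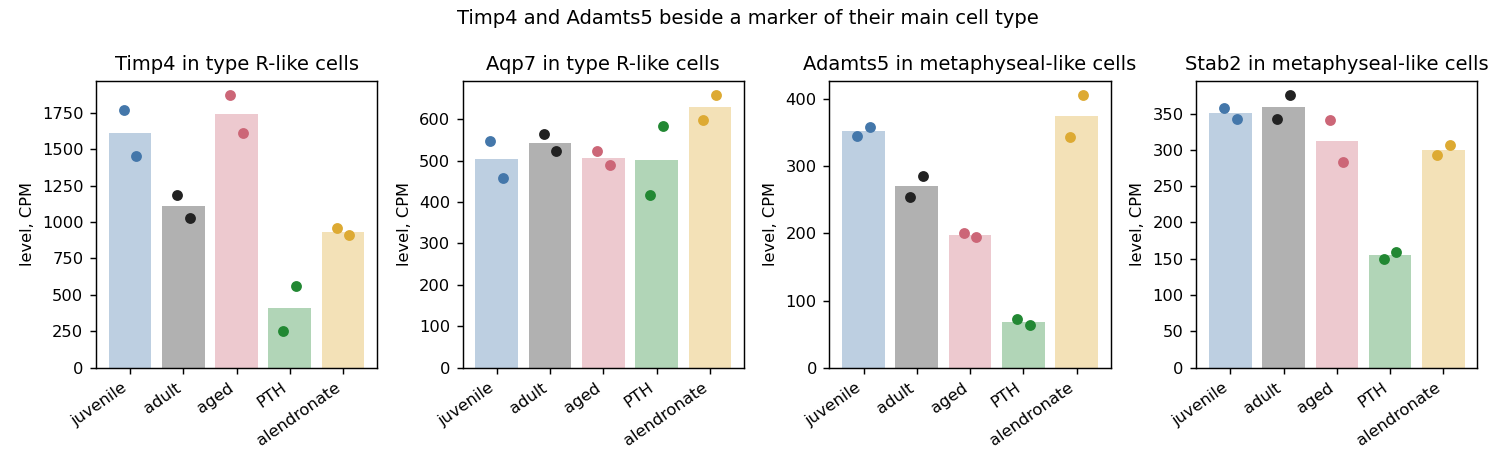
Levels in CPM of *Timp4* and *Aqp7* in type R-like cells and of *Adamts5* and *Stab2* in metaphyseal-like cells; points are libraries and bars the mean of the 2 libraries of a group. PTH libraries had the lowest *Timp4* (254 and 558 CPM), *Adamts5* (73.1 and 63.7 CPM) and *Stab2* (149.9 and 159.9 CPM), while *Aqp7* ranged from 418 to 659 CPM over all libraries.

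*Timp4* in type R-like cells had 254 and 558 CPM under PTH against 1188 and 1027 CPM in adult libraries, again below every library of the other groups (-1.21 ± 0.13, adjusted p = 8.4e-11, edgeR). PTH replicate 1 gave 37 type R-like cells and 42 *Timp4* UMIs, and the change was -0.98 without it and -2.04 without PTH replicate 2. The 6 markers that named these cells were lower as well, summing to 3683 and 4422 CPM under PTH against 5108 and 4949 CPM in adult libraries, and their part in the result was not tested. Of them, *Aqp7* had 418 and 584 CPM under PTH and 564 and 522 CPM in adult libraries, and *Car4* had 96.8 and 226 CPM against 444 and 443 CPM.

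*Mmp14* rose under PTH in sinusoidal-like (0.31 ± 0.061), arterial-like (0.69 ± 0.13) and metaphyseal-like cells (0.60 ± 0.092), where it had 259 and 245 CPM against 167 and 164 CPM (adjusted p = 6.9e-06, edgeR). Metaphyseal markers moved with it, at 389 and 395 CPM under PTH against 279.8 and 286 CPM in sinusoidal-like, 719 and 592 CPM against 373 and 411 CPM in arterial-like and 3575 and 3469 CPM against 2434 and 2309 CPM in metaphyseal-like cells, and their part was not tested. The sinusoidal-like call was lost without PTH replicate 2 (0.28, adjusted p = 0.068), and the arterial-like call without integration (0.42, adjusted p = 0.054) and with a marker gate (0.36, adjusted p = 0.26). In type R-like cells *Mmp14* had 30.3 and 26.9 CPM against 10.7 and 4.97 CPM, a change of 1.76 ± 0.59 that did not pass (adjusted p = 0.091, edgeR). *Adamts1* rose in sinusoidal-like (0.46 ± 0.053) and metaphyseal-like cells (0.51 ± 0.087), and *Timp1* in metaphyseal-like cells (0.63 ± 0.19). There the megakaryocyte marker sum was lower under PTH (42.9 and 52.0 CPM against 76.2 and 74.9 CPM), mostly through *Pf4* (21.9 and 25.3 CPM against 47.1 and 46.2 CPM). *Timp3* fell in arterial-like (-0.28 ± 0.074) and metaphyseal-like cells (-0.33 ± 0.093). The *Timp1* call was lost in 6 of 22 alternatives, among them without adult replicate 1 (0.44, adjusted p = 0.35), without PTH replicate 1 (0.60, adjusted p = 0.067) and without PTH replicate 2 (0.71, adjusted p = 0.11). Those on *Timp3* were lost in 7 of 22 alternatives, among them without adult replicate 1 (-0.28, adjusted p = 0.097), without adult replicate 2 (-0.29, adjusted p = 0.076) and without PTH replicate 2 (-0.27, adjusted p = 0.13), in arterial-like cells, and in 5 of 22 alternatives, among them without adult replicate 1 (-0.30, adjusted p = 0.16), without adult replicate 2 (-0.36, adjusted p = 0.064) and without PTH replicate 2 (-0.27, adjusted p = 0.29), in metaphyseal-like cells. Without cells holding a *Stab2* UMI, 6 rather than 10 changes passed under PTH, and in metaphyseal-like cells only that of *Adamts5* did.

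Under alendronate *Adamts1* rose in all 4 types. The counts of called genes were 5 of 8 in sinusoidal-like (background 18.6%), 1 of 8 in arterial-like (6.29%), 6 of 8 in metaphyseal-like (9.41%) and 1 of 7 in type R-like cells (2.61%). *Adamts1* had 269.5 and 261 CPM under alendronate against 155 and 149 CPM in sinusoidal-like cells and 292 and 278 CPM against 119 and 104 CPM in metaphyseal-like cells. It had 224 and 275 CPM against 128 and 121 CPM in arterial-like cells and 242 and 225 CPM against 94.4 and 82.0 CPM in type R-like cells. No alendronate library overlapped with an adult one. The changes were 0.80 ± 0.048 in sinusoidal-like, 1.35 ± 0.085 in metaphyseal-like, 0.99 ± 0.096 in arterial-like and 1.37 ± 0.17 in type R-like cells (largest adjusted p = 3.3e-09, edgeR), and the 4 calls were kept under every alternative tried. The change was larger in metaphyseal-like than in sinusoidal-like cells by 0.56 ± 0.10 (adjusted p = 2.5e-04, edgeR; 1.20% of all genes were called), a call lost without adult replicate 2 (0.48, adjusted p = 0.067) and at clustering resolution 0.3 (0.36, adjusted p = 0.055).

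*Adamts1* had a median of 385 CPM in the sinusoidal-like cluster led by *Fosb* and *Fos*, beside 155 CPM in the largest sinusoidal-like cluster. A list of 8 early response genes (*Fos*, *Fosb*, *Jun*, *Junb*, *Egr1*, *Atf3*, *Ier2* and *Zfp36*), added after results were seen, summed to 2514 and 2485 CPM under alendronate and 2171 and 2299 CPM in adult sinusoidal-like cells. It was 1839 and 2163 CPM against 1589.6 and 1564 CPM in arterial-like, 1814 and 1887 CPM against 1551 and 1599 CPM in metaphyseal-like and 3149.8 and 3074 CPM against 2201 and 1969.8 CPM in type R-like cells, so alendronate libraries lay above adult ones in all 4 types, as they did for *Adamts1*. In sinusoidal-like cells it was 3033 and 2777 CPM under PTH, where *Adamts1* rose too, and 1395 and 1356 CPM in juvenile libraries, where *Adamts1* was above and the sum below adult libraries. In metaphyseal-like cells it was 1377 and 1225 CPM under PTH and 1324 and 1227 CPM at 75 weeks, below adult libraries, while *Adamts1* rose. Without the *Fosb*-led cluster the alendronate change of *Adamts1* in sinusoidal-like cells was 0.82. The part of the early response in the changes of *Adamts1* was not tested.

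**Figure D5:**
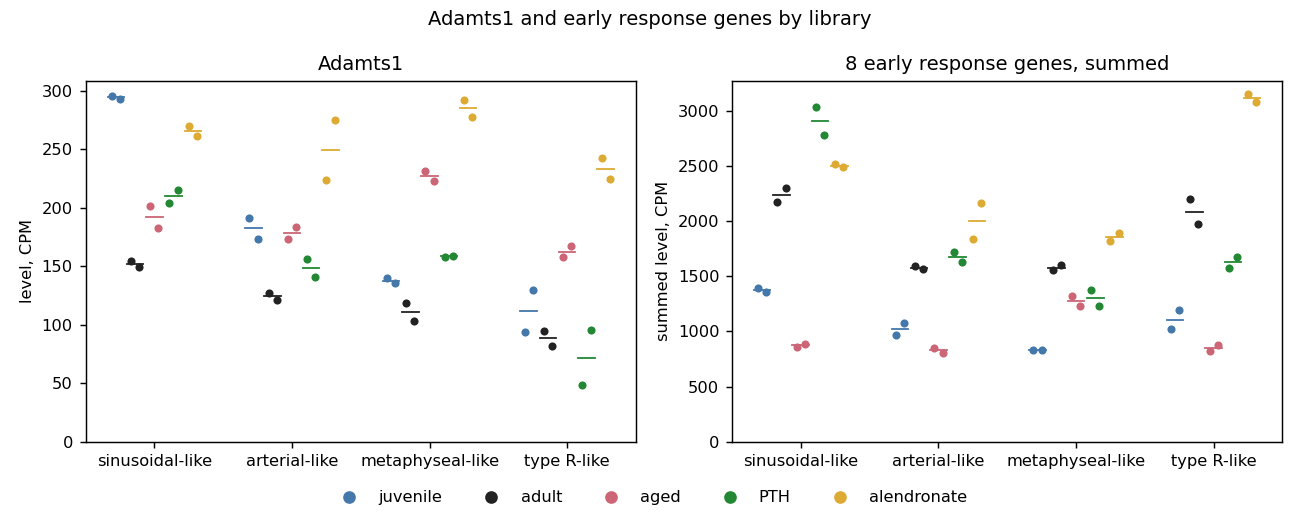
Level of *Adamts1* (left, CPM) and summed level of 8 early response genes (right, CPM) in 4 cell types; points are libraries, coloured by group, and short lines the mean of the 2 libraries of a group. Alendronate libraries lay above adult ones for *Adamts1* in each type, and juvenile sinusoidal-like cells had high *Adamts1* (296 and 293 CPM) with an early response sum of 1395 and 1356 CPM.

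Other members changed under alendronate as well. *Timp1* rose in sinusoidal-like (0.63 ± 0.10) and metaphyseal-like cells (0.95 ± 0.20), as did *Adamts5* (0.40 ± 0.033 and 0.47 ± 0.080) and *Mmp14* (0.22 ± 0.056 and 0.40 ± 0.097). Sinusoidal and metaphyseal markers were lower than in adult libraries. Sinusoidal ones summed to 5808 and 5856 CPM against 6091 and 6135 CPM in sinusoidal-like cells. In metaphyseal-like cells they had 1433 and 1505 CPM against 1699 and 1785 CPM. Metaphyseal markers had 194 and 199 CPM against 279.8 and 286 CPM in sinusoidal-like cells. In metaphyseal-like cells they had 1887 and 2042 CPM against 2309 and 2434 CPM. Their part was not tested. *Adamts9* rose in metaphyseal-like cells (0.59 ± 0.14). *Timp2* rose in metaphyseal-like (0.28 ± 0.087) and fell in sinusoidal-like cells (-0.20 ± 0.070, adjusted p = 0.044, edgeR). *Timp4* in type R-like cells had 956 and 912 CPM, and its change of -0.27 ± 0.11 did not pass (adjusted p = 0.23, edgeR). The calls on *Timp2* were lost in 9 of 22 alternatives in metaphyseal-like and 13 of 22 in sinusoidal-like cells, leaving out either adult or either alendronate library among them. That on *Mmp14* in sinusoidal-like cells was lost without alendronate replicate 1 (0.17, adjusted p = 0.13). In metaphyseal-like cells *Mmp14* was lost in 4 of 22 alternatives, among them without adult replicate 2 (0.37, adjusted p = 0.058) and without alendronate replicate 1 (0.17, adjusted p = 0.46), and *Adamts9* with a marker gate (0.40, adjusted p = 0.068), without adult replicate 2 (0.52, adjusted p = 0.072) and without alendronate replicate 2 (0.54, adjusted p = 0.051). The call on *Timp1* in metaphyseal-like cells was lost without adult replicate 1 (0.76, adjusted p = 0.051), without alendronate replicate 1 (0.76, adjusted p = 0.058) and without cells holding a *Stab2* UMI (0.95, adjusted p = 0.054). The megakaryocyte markers summed to 166 and 149 CPM under alendronate against 78.6 and 89.5 CPM in sinusoidal-like cells and to 90.6 and 86.5 CPM against 76.2 and 74.9 CPM in metaphyseal-like cells. Most of the sinusoidal-like rise was *Pf4* (143 and 126 CPM against 64.0 and 65.7 CPM), while *Itga2b* overlapped (12.0 and 12.7 CPM against 9.03 and 12.6 CPM). The part of these markers in the rise of *Timp1* was not tested. All 4 condition comparisons share the adult libraries.

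Changes were also compared with those in sinusoidal-like cells, by a test of the difference at an adjusted p of 0.05 (edgeR). In arterial-like cells 1 of 8 genes differed so at 3 weeks (background 4.92%), 4 of 8 at 75 weeks (16.1%), 0 of 8 under PTH (1.89%) and 1 of 8 under alendronate (1.16%). In metaphyseal-like cells the counts were 2 of 8 (5.18%), 4 of 8 (8.52%), 1 of 8 (2.51%) and 2 of 8 (1.20%), and in type R-like cells 1 of 8 (1.64%), 1 of 8 (8.32%), 1 of 8 (1.21%) and 0 of 8 (0.919%), in the same order. Of the comparisons with 0 calls, 3 genes had an unadjusted p under 0.05 with edgeR in arterial-like cells under PTH and 5 in type R-like cells under alendronate, and DESeq2 called 0 and 0. *Adamts5* differed at 75 weeks in all 3 types (-3.76 ± 0.26 in arterial-like, -0.56 ± 0.12 in metaphyseal-like and -1.34 ± 0.33 in type R-like cells), and the arterial-like value reversed without integration (0.38). The metaphyseal-like call was lost without integration (-0.47, adjusted p = 0.12), at clustering resolution 1.0 (-0.25, adjusted p = 0.22) and with DESeq2 (-0.54, adjusted p = 0.44), and the type R-like one with a marker gate (-0.76, adjusted p = 0.30) and without adult replicate 2 (-1.14, adjusted p = 0.06). DESeq2 called 1 of 8 genes at 75 weeks in metaphyseal-like cells and 0 and 1 of 8 under alendronate in arterial-like and metaphyseal-like cells.

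Among 41 other metalloproteinases, 13 had enough counts to be tested between types. In arterial-like against sinusoidal-like cells 4 were higher and 3 lower (background 18.5%, median log2 difference 0.21, -0.0058 over all genes), and in type R-like against metaphyseal-like cells 0 were higher and 6 lower (background 16.2%, median -0.65, all genes -0.015). *Adam15*, a membrane-anchored disintegrin, was higher in arterial-like than in sinusoidal-like cells (696 ± 91.1 against 174 ± 14.5 CPM; 2.00 ± 0.065). *Adam19* was higher in metaphyseal-like than in arterial-like cells (120.1 ± 12.2 against 22.0 ± 12.8 CPM; 2.59 ± 0.15). *Mmp2*, the gelatinase gene, had 77.0 and 75.5 CPM in juvenile, 37.0 and 37.1 CPM in PTH and 12.7 and 10.6 CPM in adult metaphyseal-like cells. It rose in both conditions (2.69 ± 0.18 and 1.66 ± 0.19). Under alendronate *Mmp2* was called in arterial-like cells (1.17 ± 0.20), where *Mmp14* was not, and not in metaphyseal-like cells (0.36 ± 0.26), where *Mmp14* was.

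Of 26 regulators and partners of these enzymes, 21 were tested between types. *Pcsk5*, a proprotein convertase, was higher in arterial-like than in sinusoidal-like cells (178 ± 44.2 against 1.69 ± 1.16 CPM; 6.77 ± 0.14), and *Cd44*, the hyaluronan receptor, was higher in type R-like than in sinusoidal-like cells (43.7 ± 20.7 against 0.516 ± 0.361 CPM; 6.11 ± 0.30). *Plat*, tissue plasminogen activator, was higher in arterial-like than in sinusoidal-like cells by 4.66 ± 0.14, and *Sdc4*, syndecan 4, had a difference of -2.01 ± 0.16 on the log2 scale. *Serpinh1*, the collagen chaperone HSP47, fell at 75 weeks in sinusoidal-like (-1.20 ± 0.044), arterial-like (-1.34 ± 0.072) and metaphyseal-like cells (-1.34 ± 0.064).

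Genes among those whose log2 levels ran most like each member over the 40 sums (4 types, 10 libraries) are named with Pearson's r as a description, since sums of a library share its depth. Sums of a type also share the markers that named it, among them *Aqp7* and *Stab2*. A high r with a gene particular to a type is therefore partly set by the typing. *Timp1* was most like *Rab13* (0.92), *Sh3gl1* (0.91) and *Metap2* (0.91), *Timp2* like *Ldb2* (0.94), *Npnt* (0.89) and *Ces2e* (0.87), *Timp3* like *H2-Eb1* (0.88), *Ptprb* (0.87) and *H2-Aa* (0.84) and *Timp4* like *Aqp7* (0.98), *Meox2* (0.97) and *Ehd1* (0.96). For the proteases the genes were *Tbkbp1* (0.71), *Fosl2* (0.70) and *Midn* (0.70) with *Adamts1*, *Stab2* (0.98), *Col6a3* (0.96) and *Sema3a* (0.95) with *Adamts5*, *Spag9* (0.90), *Nr2c2* (0.89) and *Srgap2* (0.88) with *Adamts9* and *Bmp2k* (0.91) and *Fkbp10* (0.91) with *Mmp14*.

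Markers of other cells were present in these sums at different levels. The 12 haematopoietic markers summed to at most 193 CPM, and in sinusoidal-like cells to 94.3 and 123 CPM in aged and 57.0 and 64.2 CPM in adult libraries, and their part in the aged values was not tested. The 8 mural markers summed to 1284 to 1789 CPM in sinusoidal-like and 584 to 720.0 CPM in metaphyseal-like cells. The potassium channel subunit genes *Abcc9* and *Kcnj8* made up nearly all of this (medians of 759 and 634 CPM in sinusoidal-like cells), while *Pdgfrb* and *Cspg4*, which define pericytes, had at most 7.68 CPM in any sum. The pericyte gene *Rgs5* had a median of 24.5 CPM (at most 67.0 CPM) in type R-like cells, and the smooth muscle actin gene *Acta2* reached 97.9 CPM in arterial-like and 41.2 CPM in type R-like cells, with a median of 1.94 CPM in arterial-like cells. A mural-like cluster of 51 cells held 42 UMIs of *Timp4*, a level of 149.6 CPM. The 8 erythroid markers, mostly haemoglobin genes, reached 2991 CPM in type R-like cells, and megakaryocyte markers reached 217 CPM. Lymphatic markers reached 378 CPM in sinusoidal-like cells, where *Mmrn1* had a median of 146 CPM and *Prox1* 2.61 CPM. Muscle markers lay mainly in type R-like cells, which hold *Timp4*, with a median sum of 23.8 CPM (at most 40.5 CPM) against at most 9.12 CPM in any other type. Most of that was *Mylpf* (median 21.4 CPM), while *Ckm* and *Tnnt3* had medians of 0 CPM. Mesenchymal markers summed to at most 202 CPM, in type R-like cells. Most of that was *Alpl* (median 142 CPM, at most 190 CPM), which had a median of 61.8 CPM in arterial-like cells. *Col1a1*, *Dcn* and *Runx2* had medians of 0 CPM in type R-like cells. The part of all these markers in the values of the 8 genes was not tested.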

How the data were processed

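Single-cell libraries of sorted bone ECs were made with a 10x Chromium 3′ kit. Per the labels and the study's methods, the authors extracted barcodes with UMI-tools 1.1.2, aligned reads to mm10 with STAR 2.7.10a and assigned them to genes with featureCounts (Subread) 2.0.3; the deposited tables hold UMI counts per gene and cell, not normalized. Here cells with 500 to 6000 genes and under 25% mitochondrial UMIs were kept, as were genes found in at least 3 cells. Genes starting with U (276), listed only in the aged tables, were left out. Library totals are given in the report and limit the precision of rare genes.

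Libraries were integrated and clustered in Seurat 5.3.0 (R 4.3.3; 2000 variable genes, 30 principal components, resolution 0.6) without the 8 genes, and clusters were named "-like" from marker lists. Scrublet called 1 to 34 of 2191 to 7580 cells per library, so few that it was not used to filter; an alternative left out the highest scores. UMIs were summed per type and library (at least 20 cells) and tested with edgeR 4.0.16 (TMM, filterByExpr, quasi-likelihood test, Benjamini-Hochberg adjustment over all genes tested). Types were compared with the library as a block, conditions within each type, and the difference of condition effects in a joint fit. The fits were also run on simulated sums with a fixed spread and the same mean in all types, apart from genes changed on purpose. Real sums differ more between types, so no conclusion is drawn from that run. CPM are on 1 TMM scale for the 8 genes, the other listed genes and single markers of the 4 types. Fits within a type used TMM factors of that type alone, so their log2 changes can differ from the ratio of CPM. Marker sums, single markers of non-endothelial and lymphatic cells and cluster levels are scaled to all UMIs without TMM factors. DESeq2 1.42.0, other scalings, filters and cell typings, and leaving out each library were alternatives. Likeness was taken over genes of at least 20 CPM, with 1 gene not reported here, and of the 2 further gene lists, those with the largest called change at 20 CPM or more could be named, 3 per comparison. The members, lists and markers were chosen with earlier results of these data known.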

Additional observations from a re-analysis of the deposited data

Results flagged for a closer look

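Changes against adult libraries that differed between a type and sinusoidal-like cells were picked out by a test of the difference itself (edgeR quasi-likelihood test, log2 difference ± SE). Of 96 such tests over the 8 genes, 18 passed an adjusted p of 0.05.

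At 3 weeks, arterial-like cells differed in *Timp3* by -0.44 ± 0.12 (adjusted p = 0.011), with 4.92% of all genes called. The call was lost in 6 of 21 alternatives, among them without juvenile replicate 1 (-0.35, adjusted p = 0.33) and without adult replicate 2 (-0.38, adjusted p = 0.14). Metaphyseal-like cells differed in *Timp2* by 0.61 ± 0.12 (adjusted p = 3.2e-04), a call lost with DESeq2 (0.62, adjusted p = 0.092), and in *Adamts1* by -0.63 ± 0.11 (adjusted p = 1.2e-05), with 5.18% of all genes called. Type R-like cells differed in *Timp4* by 1.39 ± 0.28 (adjusted p = 6.6e-04), with 1.64% called. Of this value, the change within type R-like cells was 0.68 ± 0.14 and that in sinusoidal-like cells, where the share with *Timp4* is read as background, was -0.79 ± 0.28. It was lost in 4 of 21 alternatives, among them without juvenile replicate 1 (0.97, adjusted p = 0.30) and without adult replicate 2 (0.84, adjusted p = 0.39).

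At 75 weeks, arterial-like cells differed in *Timp1* by 1.37 ± 0.46 (adjusted p = 0.027), in *Timp3* by -0.36 ± 0.090 (adjusted p = 0.002), in *Adamts5* by -3.76 ± 0.26 (adjusted p = 6.7e-22) and in *Mmp14* by -1.19 ± 0.16 (adjusted p = 1.7e-09), beside 16.1% of all genes. *Timp1* was lost in 5 of 21 alternatives, among them without adult replicate 1 (1.03, adjusted p = 0.23), without aged replicate 1 (1.27, adjusted p = 0.12) and without aged replicate 2 (1.55, adjusted p = 0.069), and *Timp3* without adult replicate 2 (-0.24, adjusted p = 0.19). The level of *Adamts5* in arterial-like cells is read as background. *Adamts5* and *Mmp14* reversed without integration (0.38 and 0.64). Metaphyseal-like cells differed in *Timp2* by -0.59 ± 0.13 (adjusted p = 5.0e-04), in *Adamts1* by 0.68 ± 0.11 (adjusted p = 2.5e-06), in *Adamts5* by -0.56 ± 0.12 (adjusted p = 3.9e-04) and in *Mmp14* by -0.45 ± 0.11 (adjusted p = 0.0022), beside 8.52%. Here *Timp2* was lost without integration (-0.33, adjusted p = 0.41) and with DESeq2 (-0.57, adjusted p = 0.10), *Adamts1* without integration (-0.35, adjusted p = 0.46) and without cells holding a *Stab2* UMI (0.37, adjusted p = 0.19), *Adamts5* without integration (-0.47, adjusted p = 0.12), at clustering resolution 1.0 (-0.25, adjusted p = 0.22) and with DESeq2 (-0.54, adjusted p = 0.44) and *Mmp14* without integration (0.31, adjusted p = 0.40), with DESeq2 (-0.43, adjusted p = 0.054) and without aged replicate 1 (-0.38, adjusted p = 0.067). Type R-like cells differed in *Adamts5* by -1.34 ± 0.33 (adjusted p = 0.0023), beside 8.32%, a call lost with a marker gate (-0.76, adjusted p = 0.30) and without adult replicate 2 (-1.14, adjusted p = 0.06).

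Under PTH, metaphyseal-like cells differed in *Adamts5* by -1.91 ± 0.13 (adjusted p = 3.7e-22), with 2.51% of all genes called, and the value was -0.92 without cells holding a *Stab2* UMI. Type R-like cells differed in *Timp4* by -1.18 ± 0.31 (adjusted p = 0.029), with 1.21% called, a call lost in 9 of 21 alternatives, among them without adult replicate 1 (-0.70, adjusted p = 0.60), without PTH replicate 1 (-1.01, adjusted p = 0.17) and without PTH replicate 2 (-1.82, adjusted p = 0.18). The share of sinusoidal-like cells with *Timp4* lay within the interval of haematopoietic-like cells.

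Under alendronate, *Timp2* differed in arterial-like cells by 0.47 ± 0.12 (adjusted p = 0.025), with 1.16% of all genes called. It was lost in 6 of 21 alternatives, among them without adult replicate 1 (0.48, adjusted p = 0.16), without adult replicate 2 (0.51, adjusted p = 0.14) and without alendronate replicate 2 (0.35, adjusted p = 0.45), and DESeq2 called none of the 8 genes there. In metaphyseal-like cells *Timp2* differed by 0.49 ± 0.12 (adjusted p = 0.022) and *Adamts1* by 0.56 ± 0.10 (adjusted p = 2.5e-04), with 1.20% called. *Timp2* was lost in 7 of 21 alternatives, among them without adult replicate 1 (0.48, adjusted p = 0.18), without adult replicate 2 (0.48, adjusted p = 0.17), without alendronate replicate 1 (0.47, adjusted p = 0.14) and without alendronate replicate 2 (0.49, adjusted p = 0.069), and *Adamts1* at clustering resolution 0.3 (0.36, adjusted p = 0.055) and without adult replicate 2 (0.48, adjusted p = 0.067).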

How the results depend on the processing

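Of 104 calls on single genes, 55 were kept under every alternative run, and 8 changed direction, all when cells were clustered without integration of the libraries. There, the change at 75 weeks was 0.48 for *Adamts5* and 0.97 for *Mmp14* in arterial-like cells and -0.064 for *Adamts1* in metaphyseal-like cells. The differences from sinusoidal-like cells at 75 weeks became 0.38 (*Adamts5*) and 0.64 (*Mmp14*) in arterial-like and -0.35 (*Adamts1*) and 0.31 (*Mmp14*) in metaphyseal-like cells, and that of *Timp3* in arterial-like cells at 3 weeks became 0.095. The cause was not tested. Under PTH, 6 rather than 10 changes were called without cells holding a *Stab2* UMI, a choice made after seeing the data. Leaving out each library in turn gave 23 to 24 calls between types, 14 to 20 at 3 weeks, 22 to 22 at 75 weeks, 7 to 11 under PTH, 9 to 13 under alendronate and 13 to 22 for differences of changes. DESeq2 gave 24, 15, 22, 7, 11 and 12 calls, against 23, 18, 22, 10, 13 and 18 with edgeR. With a replicate block the counts were 19, 22, 10 and 13 for the 4 conditions; same-numbered libraries did not deviate together (correlations -0.0704 to 0.0604). Low type R-like cell numbers limit the values of *Timp1* and *Mmp14* there.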
